A study of Homo sapiens with 10 samples.

Results

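The core spliceosome was followed here through 49 protein-coding genes in parental cells and in cells with a knockout of the gene CCAR1. The members are the listed symbols found by exact match among the gene names of the deposited table, which holds 62700 genes, and all 49 had a row and were among the 18979 genes that passed the filter on low counts. The cells were RPE p53-/-, a human retinal pigment epithelial line lacking the tumour suppressor p53. The parental group was the line without further editing and the other group carried the CCAR1 knockout, so that loss of p53 is common to both. Each group had 5 libraries of polyadenylated RNA, grown in DMEM/F12 with fetal bovine serum. The labels give neither the edited site, nor the number of clones behind the knockout, nor whether the replicates were grown apart, so p-values measure only the spread between these libraries, which may be technical. In RNA from whole cultures, fewer cells of a kind and less RNA per cell cannot be told apart.

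Spliceosomes remove introns from precursor messenger RNA. They assemble anew on each intron from small nuclear ribonucleoproteins, particles made of a short uridine-rich RNA, a ring of Sm proteins and proteins specific to the particle. U1 binds the 5′ splice site and U2 the branch point, with U2AF holding the 3′ splice site. The U4/U6.U5 tri-snRNP then joins, the complex around PRPF19 (NTC) stabilises the catalytic centre, and RNA helicases of the DEAH family drive the rearrangements and release the product. These genes are expressed in essentially all dividing cells, and variants in several of the tri-snRNP genes are known to cause a retinal degeneration, retinitis pigmentosa.

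Levels below are CPM, counts per 1e6 of the library size scaled by the trimmed mean of M values (TMM), and every mean ± SD is over n = 5 libraries. Replicates 1 to 3 of each group are the 6 shallow libraries, with totals of 52.6 to 65.2 M counts (M, 1e6), and replicates 4 and 5 are the 4 deep ones, with 320.6 to 385.4 M. The 2 sets also differed in transcripts of other tissues: the summed level of skeletal muscle, erythroid and liver markers was 393 to 702 CPM in the shallow libraries and 1.02 to 1.98 CPM in the deep ones, in both genotypes. Of 10 markers of retinal pigment epithelium 7 passed the filter, and the defining RPE65, RLBP1 and TYR did not. In the libraries labelled knockout CCAR1 itself was at 92.3, 95.6, 88.5, 126 and 126 CPM in replicates 1 to 5, against 125, 133, 134, 173 and 173 CPM in the parental ones. The groups overlapped over all libraries but not within either depth, and the fitted log2 fold change was -0.48 (adjusted p = 0.0201 from edgeR's quasi-likelihood test, as for every adjusted p below unless another fit is named).

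Of the 49 members 11 were lower in knockout cells, 0 were higher and 38 did not pass the adjusted threshold of 0.05. Over all genes tested 16.9% were lower and 19.7% higher. The 11 members, 22.4% of the list, were thus a share close to the background for lower genes, and 0 were called higher. At an unadjusted p under 0.05 in edgeR 13 were lower and 0 higher (background 20.7% and 23.8%). DESeq2, run without the filter on low counts, gave 14 and 0 (8.91% and 9.1% of the 45949 genes it tested). Those 45949 include genes below the filter that all members passed, so the DESeq2 shares are not a like background for the members. The members that fell were the U1 protein gene SNRPC, the U2 gene SF3B3, the tri-snRNP genes PRPF8, EFTUD2, PRPF3 and SNRNP40, the NTC genes CDC5L and BUD31, the helicase genes DHX16 and DHX8, and SRRM2. In all 11 every knockout library lay below every parental library, which was also the case for 14.6% of all genes tested. That separation by itself fixes the exact two-sided permutation p of each at 0.00794, the smallest that 5 libraries against 5 can give. This p therefore adds nothing to the separation. With 5 libraries a group each of the 10 fits that leave out 1 library kept 10 of these 11 calls. The exception was SNRNP40.

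**Figure D1:**
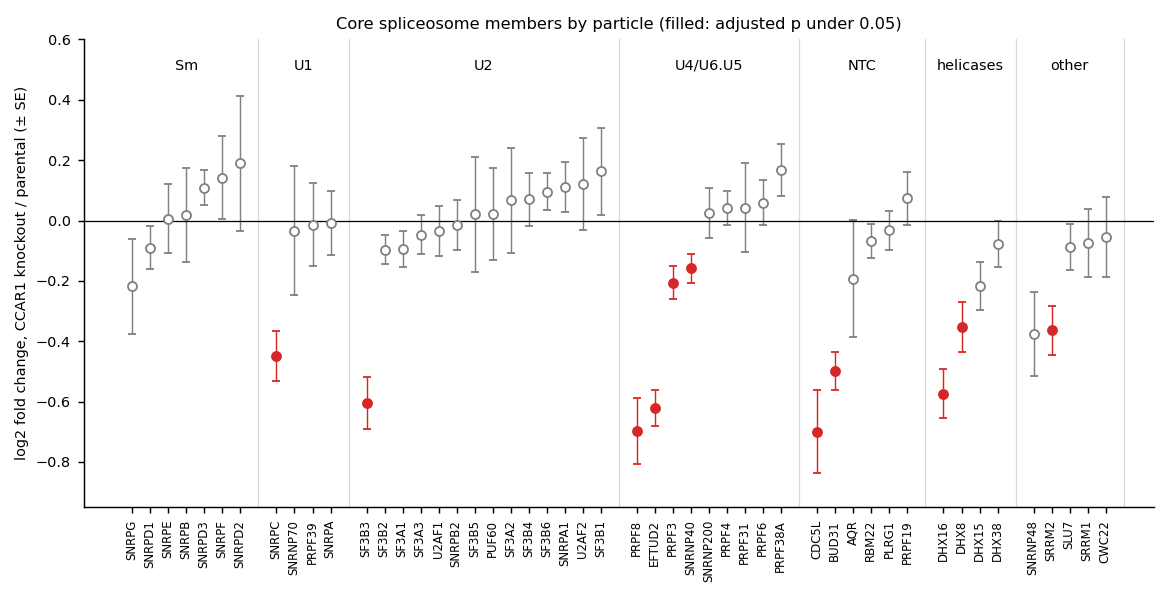
Log2 fold change of each of the 49 members, knockout over parental, with its standard error as the bar, ordered within each particle. Filled points are the 11 members with an adjusted p under 0.05, all of them below 0, and open points are the 38 others, between -0.38 and 0.19.

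The members' median log2 fold change was -0.03, beside 0.02 for all genes tested, and 30 of 49 were negative. The sign of so small a median depends on the scaling: it was -0.06 with DESeq2 size factors and 0.01 with library size only, where the median over all genes was -0.01 and 0.07. Library size only called 9 members lower and 1 higher, SNRPD3, beside 13.7% and 22.5% of all genes. Summed over the 49 members, the level was 7943 to 8333 CPM in the parental libraries and 6982 to 7724 CPM in the knockout libraries, and these ranges did not overlap. Members with many counts weigh most in such a sum, and 3 of these, SF3B3, PRPF8 and SRRM2, were lower.

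The Sm proteins form the heptameric ring on which U1, U2, U4 and U5 particles are built. Of the 7 Sm genes 0 passed, at an unadjusted p under 0.05 or in DESeq2 as well, and their log2 fold changes ran from -0.22 for SNRPG to 0.19 for SNRPD2. The smallest adjusted p of the 7 was that of SNRPD3, whose parental mean was 120.3 ± 1.14 CPM and knockout mean 129.8 ± 8.45 CPM (adjusted p = 0.166). SNRPG was at 84.1 ± 10.3 and 72.3 ± 17.1 CPM, and its adjusted p of 0.326 became 0.0053 when the replicate number was added to the fit as a block. The block takes up the difference between shallow and deep libraries, and with it 16 members were lower and 2 higher, where the background rose to 30.1% and 31.1%. Depth as a term in its place gave 18 lower and 4 higher (31.3% and 32.7%).

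U1 proteins recognise the 5′ splice site. Of 4 genes assigned to U1, SNRPC was lower. It encodes U1-C, a zinc finger protein that stabilises the pairing of U1 with the 5′ splice site. SNRPC was at 104, 115, 106, 98.3 and 104 CPM in parental replicates 1 to 5 and at 72.3, 83.9, 89, 71.5 and 70.3 CPM in knockout replicates 1 to 5. The highest knockout library, replicate 3, lay below the lowest parental library, replicate 4. The mean fell from 106 ± 6.19 to 77.4 ± 8.5 CPM, a log2 fold change of -0.45 ± 0.0823 (SE) (adjusted p = 0.0016). The 3 other U1 genes did not pass. SNRNP70, which binds the first stem loop of U1 RNA, was at 421 ± 84.2 and 411 ± 119 CPM (adjusted p = 0.93), and SNRPA, which binds the second, had an adjusted p of 0.965. PRPF39, a U1-associated factor, had an adjusted p of 0.957.

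The U2 particle carries the SF3A and SF3B complexes, which clamp U2 onto the branch point, and works with U2AF. Of 14 genes in this group SF3B3 was lower and 13 did not pass. SF3B3 is a scaffold of beta propellers in SF3B. Its level was 594, 582, 579, 672 and 665 CPM in parental replicates 1 to 5 and 396, 374, 355, 449 and 459.8 CPM in knockout replicates 1 to 5. In both genotypes the deep libraries were the higher ones, and the groups were apart by more than that difference. The mean fell from 618 ± 46.2 to 407 ± 46 CPM and so to 65.8% of its value in parental cells, a log2 fold change of -0.60 ± 0.0872 (SE) (adjusted p = 3.45e-04).

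Its partners in SF3B did not pass the test. SF3B1, which holds the branch point adenosine, was at 216 ± 29.8 and 242 ± 49.2 CPM, with a log2 fold change of 0.16 (adjusted p = 0.43, and 0.0176 with the block, which would call it higher). SF3B2 was at 359.8 ± 10.5 and 336 ± 10.3 CPM and had the smallest adjusted p of the 13 others (0.144, and 0.0375 with the block). SF3B4, SF3B5 and SF3B6 had log2 fold changes of 0.07, 0.02 and 0.10. SF3A1, SF3A2 and SF3A3, the 3 subunits of SF3A, had log2 fold changes of -0.09, 0.07 and -0.05. The RNA-binding pair SNRPA1 and SNRPB2, which sit on U2 RNA, were at 0.11 and -0.01, the large U2AF subunit U2AF2 at 0.12 and PUF60, a poly-U-binding relative of it, at 0.02. None of these passed.

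U2AF1, the small U2AF subunit that reads the AG at the 3′ splice site, needs a second row beside it. Its own row, at chr21:43092956-43107587 (GRCh38, minus strand), was at 82.9, 83.2, 83.8, 76.9 and 74.9 CPM in parental replicates 1 to 5 and at 72.9, 87, 89.2, 70.4 and 72.8 CPM in knockout replicates 1 to 5, and the groups overlapped (adjusted p = 0.805). The table also counts a gene listed there only by the identifier ENSG00000275895, which GENCODE v29 names U2AF1L5 and places at chr21:6484623-6499261. That stretch is known in the field as an erroneous duplication in the assembly. The coding sequence of each of 2 annotated isoforms, 723 bases with the stop codon, differs at 0 bases between the 2 loci, so reads from it cannot be assigned to either. The isoforms themselves differ at 23 bases, all inside 1 alternative exon of 67 bases, which is shown because it is the part of the coding sequence that tells the isoforms, but not the loci, apart. Capitals mark the bases at which the isoforms differ, and the lines are coding bases 133 to 199 read from GENCODE v29 transcripts.
U2AF1, isoform 1, chr21:43100453-43100519: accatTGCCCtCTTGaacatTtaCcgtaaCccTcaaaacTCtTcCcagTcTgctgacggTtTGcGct
U2AF1L5, isoform 1, chr21:6492131-6492197: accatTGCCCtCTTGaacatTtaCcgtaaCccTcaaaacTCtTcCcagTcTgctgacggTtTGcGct
U2AF1, isoform 2, chr21:43101366-43101432: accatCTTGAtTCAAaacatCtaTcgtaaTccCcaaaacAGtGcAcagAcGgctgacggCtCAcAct
U2AF1L5, isoform 2, chr21:6493044-6493110: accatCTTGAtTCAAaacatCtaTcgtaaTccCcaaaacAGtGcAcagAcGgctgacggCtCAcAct

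The second row was at 161, 156, 162, 132 and 136 CPM in parental replicates 1 to 5 and at 78, 86.8, 88, 56.8 and 57.5 CPM in knockout replicates 1 to 5. All knockout libraries lay below all parental ones, and the log2 fold change was -1.03 ± 0.142 (SE) (adjusted p = 2.60e-04). It held 63.3 to 66.0% of the 2 rows' counts in parental and 44.1 to 51.7% in knockout libraries. With the counts of both rows added, U2AF1 fell from 229.7 ± 18.1 to 151.9 ± 23.5 CPM, a log2 fold change of -0.60 ± 0.108 (SE), with an adjusted p of 0.00149. The sum lay at 209 to 246 CPM in the parental libraries, and all knockout libraries were below that, at 127 to 177 CPM. The deposited row under the name U2AF1 therefore shows a log2 fold change of -0.03, and both rows together one of -0.60, and with the sum in its place 12 of 49 members were lower. Why the split between the rows differed by genotype was not tested.

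**Figure D2:**
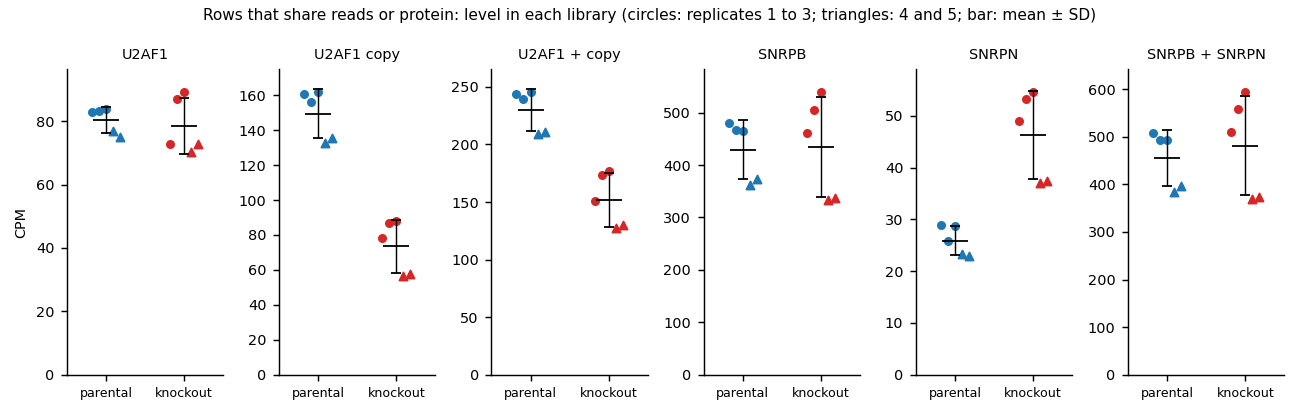
Level in CPM of U2AF1, of the second row with the same coding sequence and of their sum, and of SNRPB, SNRPN and their sum. Circles are replicates 1 to 3, triangles replicates 4 and 5, and bars mean ± SD (n = 5); the sum for U2AF1 separates the genotypes, 209 to 246 CPM against 127 to 177 CPM, while U2AF1 alone and the sum of SNRPB and SNRPN overlap.

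SNRPB and SNRPN encode nearly the same Sm protein, SmB/B′ and SmN, from different chromosomes. SNRPN, which is imprinted and best known from neurons, is not a member of the list. It rose from 25.9 ± 2.88 to 46.3 ± 8.49 CPM, with every knockout library above every parental one and a log2 fold change of 0.84 ± 0.133 (SE) (adjusted p = 6.66e-04). SNRPB was at 429 ± 56.8 and 435 ± 95.6 CPM (adjusted p = 0.95), so that the 2 rows added gave 455 ± 59.4 and 481 ± 104 CPM (adjusted p = 0.749). SNRPN made up 5.23 to 10.0% of this sum. For the other members, rows of pseudogenes and other copies held at most 0.233% of a member's counts, and adding them changed no other call.

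The tri-snRNP group had the largest number of lower members, 4 of 9 (44.4%, beside 16.9% of all genes tested). The median log2 fold change of the 9 was 0.03, and the helicase group had a larger share of lower members, 2 of 4. PRPF8 is the large U5 protein that cradles the catalytic RNA. Its level was 571, 568, 539, 618 and 614 CPM in parental replicates 1 to 5 and 340.5, 310.4, 299, 409.8 and 434 CPM in knockout replicates 1 to 5. All knockout libraries were low, the shallow ones most, and the mean fell from 582 ± 33.5 to 359 ± 60.4 CPM. Its log2 fold change of -0.70 ± 0.109 (SE) (adjusted p = 5.81e-04) is, with that of CDC5L, the largest fall of the list.

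EFTUD2 encodes Snu114, the GTPase bound to PRPF8 in U5. It was at 231, 241, 235, 250.2 and 257 CPM in parental replicates 1 to 5 and at 158, 153, 145, 165 and 169 CPM in knockout replicates 1 to 5. Both depths gave nearly the same fall, -0.64 for the shallow and -0.62 for the deep set on the log2 scale. Its log2 fold change over all was -0.62 ± 0.0604 (SE), and its adjusted p of 2.27e-05 was the smallest of the members.

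PRPF3, a U4/U6 protein and one of the retinitis pigmentosa genes, was at 35.5, 36.5, 35.6, 38 and 36.6 CPM in parental replicates 1 to 5 and at 29.3, 31.4, 31.8, 32.8 and 32.6 CPM in knockout replicates 1 to 5. The groups were apart but the change was small, a log2 fold change of -0.21 ± 0.055 (SE) (adjusted p = 0.0133). SNRNP40, a WD-repeat protein of U5, was at 88.8, 87.8, 88.4, 88.7 and 91 CPM in parental replicates 1 to 5 and at 78.7, 83.5, 81.5, 77.3 and 77.4 CPM in knockout replicates 1 to 5. Its parental libraries lay close together and every knockout library was below them, with a log2 fold change of -0.16 ± 0.0487 (SE) (adjusted p = 0.0261). SNRNP40 did not pass without parental replicate 4, parental replicate 5 or knockout replicate 5, where its adjusted p was at most 0.06. Neither PRPF3 nor SNRNP40 passed when libraries were scaled by library size only or when no filter on low counts was used.

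The 5 other tri-snRNP genes did not pass. PRPF38A, which enters with the tri-snRNP and is needed for activation, was at 60.0 ± 6.18 and 67.4 ± 5.49 CPM. Its adjusted p was 0.163, and 0.00178 with the block, which would call it higher, with knockout libraries above parental ones within each depth. The helicase gene SNRNP200, whose product unwinds U4 from U6 and is stimulated by PRPF8, was at 277 ± 9.83 and 282 ± 35.2 CPM (adjusted p = 0.862). PRPF4, PRPF6 and PRPF31, proteins that hold the tri-snRNP together, had log2 fold changes of 0.04, 0.06 and 0.04.

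**Figure D3:**
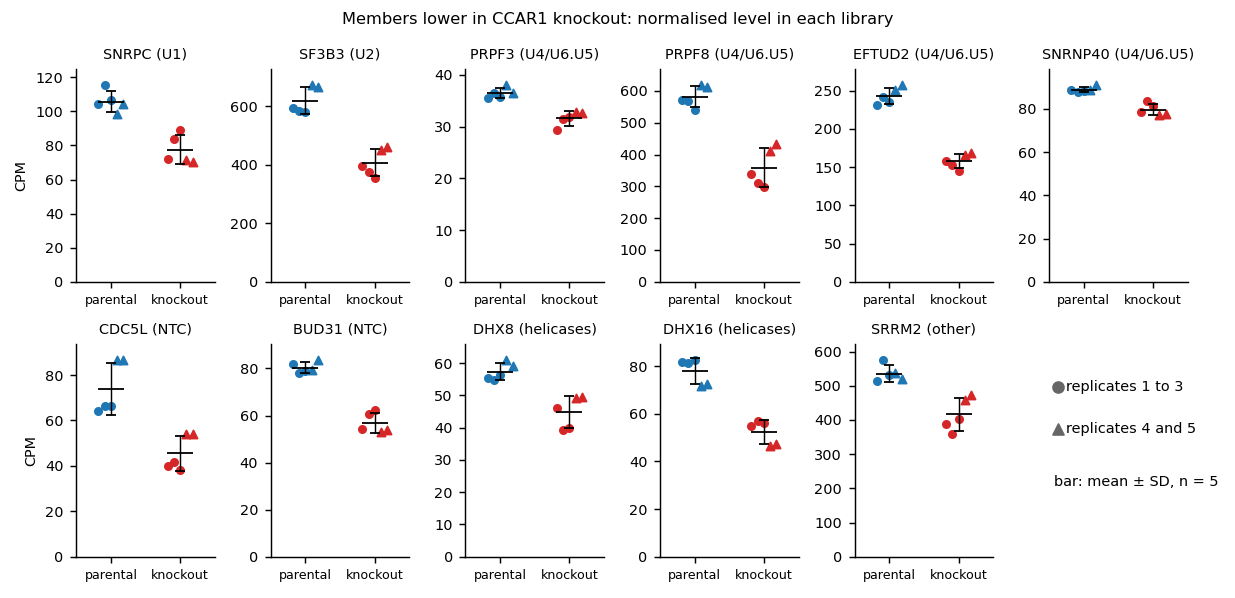
Level in CPM of the 11 lower members in each library, with bars for mean ± SD (n = 5) and each axis starting at 0. Circles are replicates 1 to 3 and triangles replicates 4 and 5; in every panel all 5 knockout libraries lie below all 5 parental libraries.

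In the NTC group 2 of 6 genes were lower. CDC5L, an MYB-like core subunit of the complex, was at 64.3, 66.2, 66.2, 86.4 and 86.6 CPM in parental replicates 1 to 5 and at 40.1, 41.6, 38.2, 53.9 and 53.8 CPM in knockout replicates 1 to 5. The deep libraries were higher in both genotypes, and within each depth the knockout libraries stood well below the parental ones. The mean fell from 73.9 ± 11.5 to 45.5 ± 7.7 CPM, with a log2 fold change of -0.70 ± 0.137 (SE) (adjusted p = 0.00247). BUD31, a small zinc-binding protein of the activated spliceosome, was at 81.7, 78.2, 79, 79.2 and 83.6 CPM in parental replicates 1 to 5 and at 54.3, 60.8, 62.4, 52.9 and 54 CPM in knockout replicates 1 to 5. Here the replicates varied little and the groups were far apart, with a mean falling from 80.3 ± 2.25 to 56.9 ± 4.36 CPM (log2 fold change -0.50 ± 0.0644 (SE), adjusted p = 1.58e-04).

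The 4 other NTC genes did not pass. RBM22, which contacts the U6 RNA in the active site, was at 57.1 ± 2.32 and 54.4 ± 2.23 CPM (adjusted p = 0.391). AQR, a helicase that binds the intron upstream of the branch point, was at 49.98 ± 9.47 and 43.7 ± 12.2 CPM, and was lower within each depth. Its adjusted p was 0.5, and 0.00819 with the block. PRPF19, the ubiquitin ligase that names the complex, and its partner PLRG1 had log2 fold changes of 0.07 and -0.03.

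The 4 DEAH-box helicase genes act at different steps. DHX16, which activates the assembled spliceosome before the first catalytic step, was at 81.6, 81.1, 82.6, 71.8 and 72.4 CPM in parental replicates 1 to 5 and at 54.9, 57, 56.2, 46.3 and 47.4 CPM in knockout replicates 1 to 5. Its groups were apart at both depths, although unlike PRPF8 and CDC5L it was lower in the deep libraries than in the shallow ones. The mean fell from 77.9 ± 5.31 to 52.4 ± 5.09 CPM (log2 fold change -0.57 ± 0.0819 (SE), adjusted p = 3.15e-04). DHX8, which releases the spliced messenger RNA, was at 55.4, 54.8, 56.3, 60.9 and 59 CPM in parental replicates 1 to 5 and at 46.1, 39.2, 39.8, 49.2 and 49.6 CPM in knockout replicates 1 to 5. The highest knockout library was below the lowest parental library, with a log2 fold change of -0.35 ± 0.0829 (SE) (adjusted p = 0.00668). DHX15, which takes apart the intron-lariat spliceosome, was just short of the threshold at 226 ± 18.4 and 194 ± 17 CPM (adjusted p = 0.0552, and 4.12e-04 with the block), and DHX38, which acts before the second step, had an adjusted p of 0.491.

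Of the 5 remaining members SRRM2 was lower. SRRM2 encodes a very long serine- and arginine-rich scaffold of nuclear speckles. It was at 515, 575, 532, 537 and 519 CPM in parental replicates 1 to 5 and at 389, 359, 404, 457 and 472 CPM in knockout replicates 1 to 5. The shallow knockout libraries were lowest, with a log2 fold change of -0.50 at that depth, -0.20 at the other and -0.36 ± 0.0806 (SE) over all (adjusted p = 0.005). SNRNP48, a protein of the U11/U12 particle of the minor spliceosome, was at 25.1 ± 4.24 and 19.3 ± 3.09 CPM. Its adjusted p was 0.0574, and 2.25e-05 with the block, since its deep libraries were higher in both genotypes while the knockout libraries were lower at each depth. SRRM1, a partner of SRRM2, the second-step factor SLU7, and CWC22, which places the exon junction complex, had log2 fold changes of -0.08, -0.09 and -0.06 and did not pass.

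Exons of 19 members overlap those of another annotated gene, 18 of them on the opposite strand, and 6 of the 11 lower members are among them (PRPF8, EFTUD2, BUD31, DHX8, DHX16 and SRRM2). The sources used here do not state if counting used strand, and reads from the overlapped stretches are uncertain.

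The 2 depths were also fitted alone. In the shallow libraries 14 members were lower and 7 higher (background 26.2% and 26.5%), and in the deep libraries 36 were lower and 3 higher (background 28.1% and 28.9% of 26859 genes). Of the 18979 genes tested over all libraries, 7074 were lower and 6294 higher in the deep libraries. The 26859 include genes outside those 18979, so their shares are not a like background for the members. The members' median was -0.03 with shallow libraries alone and -0.11 with deep ones alone on the log2 scale, beside 0.01 and -0.01 for all genes. All 11 lower members were lower at each depth alone, but the 11 were called from these same libraries, so this is no separate check. Depth and the level of the other-tissue markers cannot be told apart, and the part of those markers in the values was not tested. Of the 7 Sm genes 3 were higher in the shallow libraries and 5 lower in the deep ones. SNRPE was an example of a change of sign, at 0.12 and -0.23. The log2 fold change was lower in the deep libraries than in the shallow ones for 36 of 49 members, 69 of the 79 related splicing genes described further on and 10438 of the 18979 genes tested. In a test of the difference itself, the interaction of genotype and depth, 0 members passed in edgeR, beside 0.601% of all genes. At an unadjusted p under 0.05 for the interaction there were 18 of 49 members and 17.2% of all genes. The smallest adjusted p for this interaction among the members was 0.0929, for SNRNP70. With 2 deep libraries a group the spread behind the deep values rests on few samples.

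**Figure D4:**
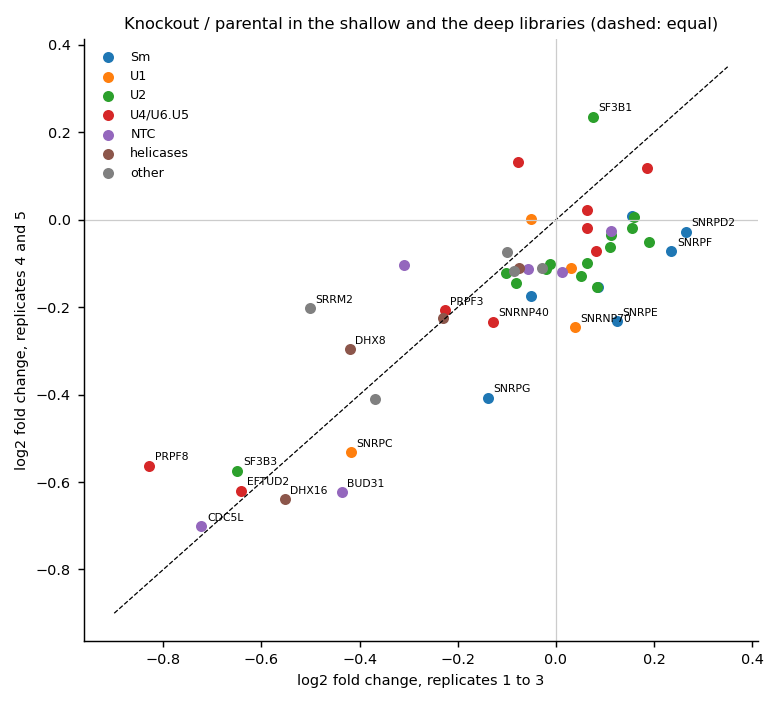
Log2 fold change of each member in replicates 4 and 5 against that in replicates 1 to 3, coloured by particle, with the dashed line where both are equal. The 11 lower members lie at the lower left in both, and most of the others lie below the dashed line, as do 36 of 49 members in all.

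Position on the chromosomes also went with the fall. Protein-coding genes of chromosomes 6, 7 and 17 had median log2 fold changes of -0.32, -0.30 and -0.28, and 42.7% of them were lower, against 15.1% on the other chromosomes. Chromosomes 13 and 10, with medians of -0.41 and -0.18, carry 0 members, and the grouping of chromosomes was chosen with these shifts known. On them 121 of 226 and 168 of 541 protein-coding genes were lower. The 15.1% includes both, so it is not a like background for the members elsewhere. In the other direction, chromosome 19 had a median of 0.17 and carries 6 members, none of them lower. Chromosomes 6, 7 and 17 carry 9 members, of which 7 were lower: CDC5L (chr6:44387525-44450426), DHX16 (chr6:30653119-30673037), SNRPC (chr6:34757406-34773794), BUD31 (chr7:99408641-99419616), PRPF8 (chr17:1650629-1684882), EFTUD2 (chr17:44849943-44899662) and DHX8 (chr17:43483865-43610338), in hg38 coordinates. The other members there, SNRNP48 and SF3B5, both on chromosome 6, did not pass. Of the 40 members elsewhere 4 were lower: PRPF3 and SNRNP40 on chromosome 1 and SF3B3 and SRRM2 on chromosome 16, where the chromosome medians were both 0.05.

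When the chromosome's median was taken off each gene's change, 9 members were lower and 0 higher (background 13.5% and 20%). The members' median log2 fold change was then -0.09, beside 0.03 for all genes tested. EFTUD2 was then at -0.34 (adjusted p = 0.00147), PRPF8 at -0.42 (0.0133), DHX16 at -0.25 (0.0363) and BUD31 at -0.20 (0.0342). CDC5L, SNRPC and DHX8 no longer passed, at -0.38 (0.0569), -0.13 (0.278) and -0.07 (0.574), nor did CCAR1 (0.121). SF3A1 on chromosome 22 then passed, at -0.19 (0.0352). SF3B3 kept its size, at -0.66 (2.21e-04). The part that the chromosome-wide shifts have in the falls of single members was not otherwise tested.

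**Figure D5:**
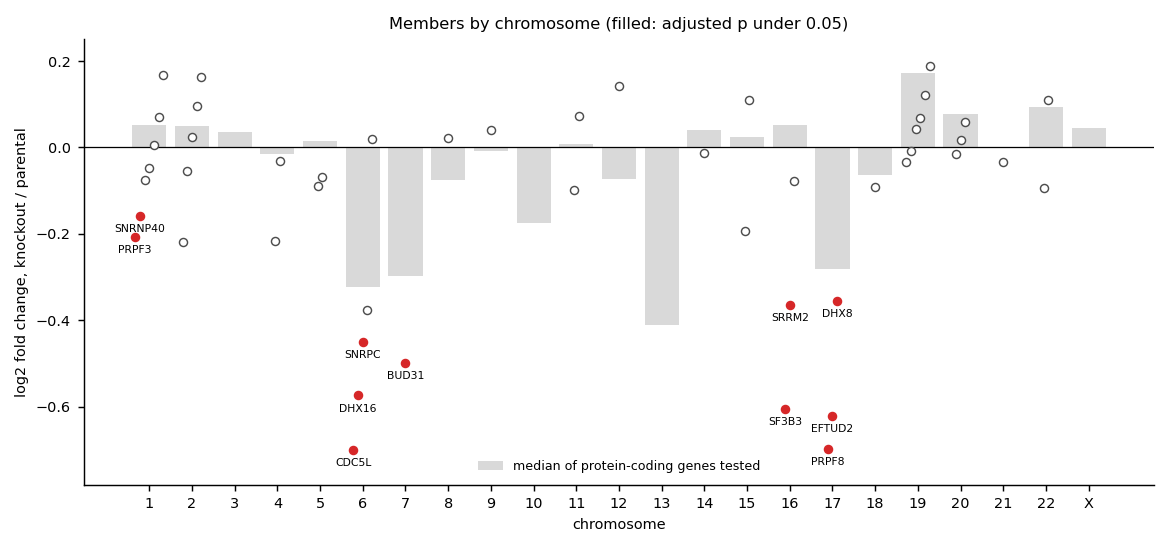
Log2 fold change of the 49 members by chromosome, filled where the adjusted p is under 0.05, over grey bars for the median of the protein-coding genes tested on that chromosome. Of the 11 filled points 7 lie on chromosomes 6, 7 and 17, whose bars reach -0.32, -0.30 and -0.28, and 4 on chromosomes 1 and 16, whose bars are at 0.05.

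Promoter sequence was looked at for motifs that the members share. RefSeq windows on GRCh38.p14, all of one length and placed around the start of transcription that RefSeq gives, were matched by symbol for 44 of the 49 members and 9 of the 11 lower ones. SF3B3 and PRPF3 were not matched. RefSeq's start can differ from that of GENCODE v29, and the whole windows of BUD31 and SRRM2 lie inside these genes as GENCODE places them. Motifs were searched on both strands as exact letters. The ETS core CCGGAAG was present in windows of 24 of 44 members, 54.5%, beside 12.2% of all genes with a window and 21.2% of the protein-coding genes tested here. Among the 9 lower members 4 had it (SNRPC, BUD31, DHX8 and DHX16). CCAAT was in 19 members, 43.2%, and in 43.1% of the protein-coding genes tested, and in 3 lower members (PRPF8, SNRNP40 and CDC5L). TATAAA was in 2 members, 4.55%, beside 14% of all genes with a window and 8.96% of protein-coding genes in the fit. A match says only that the letters are there. The windows of 3 lower members are shown, 2 with the ETS core, once as an overlapping pair on opposite strands, and 1 with CCAAT only; capitals mark the matches in either orientation, and in SNRPC also a TATAAA read on the other strand.
BUD31, chr7:99408719-99409018, plus strand: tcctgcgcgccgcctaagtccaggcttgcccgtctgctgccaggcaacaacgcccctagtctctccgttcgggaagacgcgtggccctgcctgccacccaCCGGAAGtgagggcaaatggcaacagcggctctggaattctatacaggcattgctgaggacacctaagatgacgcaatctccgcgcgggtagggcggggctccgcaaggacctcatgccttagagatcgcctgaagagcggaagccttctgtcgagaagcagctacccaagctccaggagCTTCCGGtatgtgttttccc
SNRPC, chr6:34757255-34757554, plus strand: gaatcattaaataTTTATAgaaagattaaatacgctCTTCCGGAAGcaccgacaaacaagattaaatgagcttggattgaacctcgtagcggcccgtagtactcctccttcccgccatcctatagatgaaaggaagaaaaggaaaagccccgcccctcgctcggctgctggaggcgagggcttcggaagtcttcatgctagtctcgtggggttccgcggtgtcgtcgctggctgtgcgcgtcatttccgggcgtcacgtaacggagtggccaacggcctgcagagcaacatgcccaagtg
PRPF8, chr17:1684818-1685117, minus strand: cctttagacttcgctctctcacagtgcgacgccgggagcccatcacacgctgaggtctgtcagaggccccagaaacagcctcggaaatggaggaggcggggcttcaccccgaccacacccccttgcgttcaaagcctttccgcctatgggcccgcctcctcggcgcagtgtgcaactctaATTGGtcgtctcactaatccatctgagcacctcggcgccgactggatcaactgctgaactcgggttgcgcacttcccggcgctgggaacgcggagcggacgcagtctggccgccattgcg

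Other genes of the splicing pathway were counted from 8 further lists of 79 genes in all, of which 20 were lower and 4 higher, 25.3% and 5.06% beside 16.9% and 19.7% of all genes tested. The last value in each bracket is the adjusted p. In the LSm ring and its U6 partners 1 of 8 was lower, LSM8, a ring subunit specific to U6 (34.4 ± 2.16 to 23.8 ± 1.86 CPM, adjusted p = 2.77e-04). Among 6 other U1-associated genes 2 were lower, LUC7L2 (107 ± 4.99 to 82.3 ± 1.56 CPM, 2.51e-04) and LUC7L3 (189 ± 18.2 to 159 ± 13.5 CPM, 0.0431), which help choose 5′ splice sites. Among 11 other U2-associated genes 4 were lower and 1 higher. RBM17 fell from 113 ± 3.64 to 80.1 ± 2.57 CPM (2.89e-05) and the helicase gene DDX42 from 185 ± 5.02 to 134 ± 3.82 CPM (3.18e-05), while SF1, which binds the branch point before U2 does, rose from 353 ± 8.06 to 454 ± 27.2 CPM (4.83e-04).

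Of 13 other tri-snRNP and B complex genes 3 were lower, WBP4 most, from 29.7 ± 1.78 to 15 ± 0.661 CPM (adjusted p = 1.23e-06), and USP39 from 93 ± 2.8 to 82.2 ± 5.52 CPM (0.0415). WBP4 lies on chromosome 13, whose protein-coding genes had a median log2 fold change of -0.41. Of 16 other NTC and catalytic-stage genes 7 were lower, among them CWC25, needed for the first step (33.9 ± 0.537 to 21.2 ± 1.26 CPM, 8.76e-06), and the prolyl isomerase gene PPIL1 (41.1 ± 2.83 to 29.3 ± 1.25 CPM, 1.94e-04). In the exon junction complex 2 of 5 were lower, CASC3 (129.9 ± 5.72 to 111 ± 6.41 CPM, 0.0112) and MAGOHB (31.6 ± 1.65 to 26.6 ± 2.16 CPM, 0.0185).

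In the minor spliceosome, which removes the rare U12-type introns, 0 of 7 genes were lower and 1 was higher, ZRSR2, which reads the 3′ splice site of these introns (17 ± 0.517 to 19.9 ± 1.75 CPM, adjusted p = 0.0268). The median log2 fold change of these 7 was 0.25, and the 7 values ran from 0.00 to 0.29. At an unadjusted p under 0.05 in edgeR 2 were higher and 0 lower, DESeq2 called 0 in either direction, and with the block 5 of 7 were higher (background 31.1%). Replicates 1 to 3 alone gave a median of 0.28, with 4 higher and 0 lower (background 26.5% and 26.2%). Replicates 4 and 5 alone gave a median of 0.06, with 3 higher and 1 lower (background 28.9% and 28.1%). SNRNP48, also of the U11/U12 particle, is counted among the 49 members and not among these 7, and its log2 fold change was -0.38 (adjusted p = 0.0574, and 2.25e-05 with the block). Of 13 genes for snRNP assembly, the SMN-Gemin and methylosome pathway that loads Sm rings, 1 was lower and 2 higher. GEMIN4 fell from 86.4 ± 3.05 to 62.3 ± 1.49 CPM (4.43e-05), GEMIN8 rose from 10.7 ± 0.455 to 14.9 ± 0.507 CPM (1.18e-04) and GEMIN2 from 6.7 ± 0.216 to 8.49 ± 0.187 CPM (0.00124). Of the lower genes named from these lists, LSM8 and LUC7L2 lie on chromosome 7, PPIL1 on chromosome 6 and RBM17 on chromosome 10 (median -0.18). LUC7L3, DDX42, CWC25, CASC3 and GEMIN4 lie on chromosome 17. With the chromosome medians taken off, 15 of the 79 were lower and 3 higher (background 13.5% and 20%). Of the lower genes named, LUC7L2 was then at -0.08 (0.288), LUC7L3 at 0.04 (0.803), PPIL1 at -0.17 (0.0738), CASC3 at 0.05 (0.585) and MAGOHB at -0.18 (0.081), and none of these 5 passed, which left 0 of 5 in the exon junction complex. ZRSR2 did not pass either, at 0.19 (0.0688). The other named genes of these lists kept their calls, WBP4 at -0.57 (5.78e-05) and RBM17 at -0.33 (5.94e-04). The rule for names left out further lower genes. Of these, DDX46 on chromosome 5 fell from 171 ± 17.4 to 105 ± 11.1 CPM (2.01e-04). With the chromosome median taken off it was at -0.71 (1.95e-04). DNAJC8 and PPIE on chromosome 1 and CWC15 and BUD13 on chromosome 11 also kept their calls. DDX23 on chromosome 12, CDC40 on chromosome 6 and PRPF18 on chromosome 10 did not.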

How the data were processed

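Polyadenylated RNA of 5 parental and 5 CCAR1 knockout libraries of RPE p53-/- cells was sequenced. The authors deposited 1 table of estimated counts (expected counts) per gene and library, not normalised. Per the submitters' processing notes they used kallisto 0.48.0 and hg38. Neither the annotation release nor how transcripts were summed to genes is stated in the sources used here. Kallisto apportions ambiguous reads by likelihood, so the split between near-identical genes is uncertain.

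After rounding, genes were kept by filterByExpr by genotype and libraries scaled by TMM. The fit was edgeR's robust quasi-likelihood model (4.0.16, under R 4.3.3) with genotype as the one term. P-values were adjusted by Benjamini and Hochberg's method over the 18979 of 62700 genes tested and called at 0.05. Standard errors come from the coefficient and its F statistic. No set test was run. For single genes the mean log2 CPM was also compared by an exact permutation test, two-sided. Every member was accounted for, and the rule for names gave library values to members past the threshold, group means to the nearest one not past it in each particle, both p-values where the replicate block changed a call, and up to 2 genes each way in each related list. The members, lists and rules were chosen with earlier results of these data known.

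Positions, overlaps and coding sequences are from GENCODE v29 on GRCh38, matched by gene identifier for 95.1% of the genes tested, and promoters from a RefSeq table on GRCh38.p14. Replicate libraries of 1 depth gave chi-square values of 6.99 to 26.7 per gene against each other, above sampling noise, and all were kept as separate samples. Deviations from the group means correlated across genes at 0.58 to 0.90 for libraries with the same replicate number, at 0.59 to 0.90 for other numbers of the same depth and at -0.78 to -0.72 for different depths. Each group mean spans both depths, so a difference between depths by itself gives the negative sign. The ranges for the same number and for other numbers of the same depth were alike, so this check shows matching by depth and not by number. The labels do not say what a number stands for. The replicate block is printed where it changes a call. Alternatives were DESeq2 size factors, library size only, other filters, DESeq2 1.42.0, the block, depth as a term, each depth alone, chromosome medians taken off, copies added and each library left out. The interaction of genotype and depth and the sum of SNRPB and SNRPN were chosen after seeing the data.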

Additional observations from a re-analysis of the deposited data

Results flagged for a closer look

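In 3 of the 100 combinations of group and gene that were checked (the 49 members and CCAR1, in each group of 5), 1 library stood apart from the others by more than Dixon's 95% critical value of 0.71. Chance flags about 1 in 20 such groups. All 3 were knockout libraries at the low end. Replicate 1 had 87.1 CPM of SNRPD1, the other knockout libraries 101 to 104 CPM. The same replicate had 59.1 CPM of SNRPB2, a U2 protein gene, the others 68.2 to 69.3 CPM. Replicate 3 had 50.7 CPM of RBM22, the others 54.6 to 56.1 CPM. None of these 3 genes was called lower or higher.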

How the results depend on the processing

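The 11 lower members kept a negative fold change in every alternative fit. Members called lower numbered 9 to 16 in the other fits, 18 with depth as a term and 36 in replicates 4 and 5 alone. Members called higher, 0 in the fit reported, numbered 1 with library size only, 2 with the replicate block, 4 with depth as a term, 7 in replicates 1 to 3 alone and 3 in replicates 4 and 5 alone. The members' median was -0.11 in replicates 4 and 5 alone and -0.09 with chromosome medians taken off. Leaving out 1 library gave 10 to 13 lower members, 0 higher and medians of -0.08 to -0.03.

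Over all genes 3741 were higher and 3198 lower. The replicate block gave 5906 and 5713, depth as a term 6200 and 5949, replicates 4 and 5 alone 7775 and 7545, and replicates 1 to 3 alone 4931 lower. Leaving out 1 library gave 3318 to 3709 higher and 2765 to 3196 lower. The block changed no member's call other than the 7 named with it. In replicates 4 and 5 alone 7 members passed with the opposite sign, as PRPF31 was at -0.072, PUF60 at -0.10, SF3A2 at -0.062, SF3B5 at -0.15, SNRPB at -0.15, SNRPE at -0.23 and SNRPF at -0.072. CCAR1 did not pass with library size only, with chromosome medians taken off or without parental replicate 5. The cause of these differences was not tested.

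The spread that includes both depths limits the fit over all libraries, and small changes of the members can be missed by it. The 2 deep libraries a group give no independent check of their own spread. Counting error is small at these depths. Splicing itself was not analysed here, since the table holds genes.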
